A study of Mus musculus with 7 samples.

Results

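The volume and salt content of uterine luminal fluid depend on a small set of epithelial and vascular channels. Aquaporins let water cross membranes, the chloride and bicarbonate channel CFTR drives secretion of fluid into the lumen, and the epithelial sodium channel ENaC, built from the subunits encoded by Scnn1a, Scnn1b and Scnn1g, drives its absorption. Oestrogen is known to favour secretion in the rodent uterus and progesterone to favour absorption, which brings the luminal walls together before an embryo attaches. Guca2b encodes uroguanylin, a small peptide best known from the intestine, where it acts through the receptor guanylate cyclase C to raise cyclic GMP and opens CFTR.

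The genes followed here were 5 aquaporins (Aqp1, Aqp3, Aqp4, Aqp5 and Aqp8), Cftr, the 3 ENaC subunit genes and Guca2b, chosen by symbol, 10 of the 23282 rows in each table. Expression was measured in uterus of 6-week-old female C57BL/6 mice by QuantSeq, a method that sequences transcripts from their polyadenylated 3′ ends, so that counts do not scale with transcript length. Tests compare libraries, and a gene named as the most abundant of a list, or as leading it, is the one with the highest mean CPM. Recombinant human CXCL12, a chemokine, had been infused into one uterine horn (100 ng in 30 µl of saline) and saline into the other. There were 2 saline-treated libraries, 2 CXCL12 libraries taken on Day 3 and 3 taken on Day 8 after the infusion. The saline libraries carry no day in the labels, and no library carries a stage of the oestrous cycle, nor do the labels say which libraries came from the same animal, so the P values measure the spread between these libraries. Because saline entered the opposite horn of treated animals, the saline libraries are not from untouched mice.

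The 6 libraries deposited as counts held 6908790 (saline 1), 9491691 (saline 2), 9968909 (Day 3 replicate 2), 9601312, 12308982 and 9941132 counts (Day 8 replicates 1, 2 and 3). Day 3 replicate 1 was deposited as log2 values of normalized counts, and its number of reads is not given. Levels are given below as CPM, counts scaled by TMM over the 7 libraries to a common total. A gene with 3 counts, taken as the floor, had between 0.248 and 0.368 CPM, a limit that covers counting error only.

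The libraries did not sort by label alone. Across genes, saline replicate 1 correlated at 0.887 to 0.908 with each of the other libraries, while saline replicate 2 correlated at 0.966 with Day 3 replicate 1. Day 8 replicate 1 correlated at 0.911 with Day 8 replicate 2 and 0.910 with Day 8 replicate 3. With the Day 3 libraries it correlated at 0.962 and 0.964, and with saline replicate 2 at 0.958. The table of Day 8 replicate 1 also carries Day 3 in its name. It was kept at Day 8, as labelled, and for the fluid genes and the named transport genes values without it are given where they changed a call or moved a called value by over 1.5 times. All 10 uterus markers, among them Hoxa10, Hoxa11 and Pgr, were at 1 CPM or more in at least one library, and Pgr, the most abundant, lay between 185 and 737 CPM.

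Guca2b, Aqp8 and Cftr had the widest ranges over the libraries and gave the results described first. They lie apart in the genome (GRCm38): Guca2b at chr4:119656601-119658945 on the minus strand, Aqp8 at chr7:123462294-123468003 and Cftr at chr6:18170687-18322770, both on the plus strand. The 250 bases before each RefSeq start site (GRCm38.p6) are shown because these genes differed most between libraries, with letters in capitals where one of 4 searched motifs matched on either strand.
Guca2b (chr4:119658946-119659195): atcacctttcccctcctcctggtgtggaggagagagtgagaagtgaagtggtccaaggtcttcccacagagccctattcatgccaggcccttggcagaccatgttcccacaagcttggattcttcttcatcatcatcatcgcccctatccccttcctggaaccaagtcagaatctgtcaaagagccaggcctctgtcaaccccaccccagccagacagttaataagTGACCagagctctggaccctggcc
Aqp8 (chr7:123462044-123462293): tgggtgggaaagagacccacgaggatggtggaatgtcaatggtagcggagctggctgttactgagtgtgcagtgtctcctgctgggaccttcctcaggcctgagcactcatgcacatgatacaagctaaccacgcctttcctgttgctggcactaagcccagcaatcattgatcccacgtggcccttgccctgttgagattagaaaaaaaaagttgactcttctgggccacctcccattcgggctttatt
Cftr (chr6:18170437-18170686): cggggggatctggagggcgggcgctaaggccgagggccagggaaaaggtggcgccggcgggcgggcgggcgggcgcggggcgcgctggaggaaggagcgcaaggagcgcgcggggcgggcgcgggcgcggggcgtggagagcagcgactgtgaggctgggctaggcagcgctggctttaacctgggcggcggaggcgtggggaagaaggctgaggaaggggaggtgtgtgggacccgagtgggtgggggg

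The motifs were TGTTCT (half-site of the progesterone and glucocorticoid receptors), GGTCA (half-site of the oestrogen receptor), TATAAA and CCAAT. The only match in these windows was the reverse complement of GGTCA in Guca2b, whose first base lies 24 bases before the start. GGTCA in either orientation is present in 35.2% of the 32851 promoter windows of this length, TGTTCT in 16.1%, TATAAA in 12.4% and CCAAT in 33.8%. Of the 8 genes in the promoter table, Aqp5, Scnn1b and Scnn1g also held GGTCA and Aqp3 held TATAAA, while TGTTCT and CCAAT were in none of the 8 windows. The window of Cftr was 76.4% G and C, against 54.4% for Guca2b and 52.4% for Aqp8. A match here is a description of letters and not of a bound site.

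Uroguanylin mRNA was at a low level in 5 libraries and many times higher in the other 2. Guca2b had 2.33 and 1.74 CPM in the saline libraries, 3.28 and 4.04 in the Day 3 libraries and 3.62, 69.3 and 87.4 in Day 8 replicates 1, 2 and 3. In counts these were 19 and 18 in saline, 39 in Day 3 replicate 2, and 31, 840 and 844 at Day 8. All Day 8 libraries lay above both saline libraries, but Day 8 replicate 1 lay between the Day 3 libraries.

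The mean was 2.03 ± 0.419 CPM in saline (SD, n = 2), 3.66 ± 0.536 at Day 3 (SD, n = 2) and 53.4 ± 44.1 at Day 8 (SD, n = 3). Guca2b was higher at Day 8 than in saline by 4.72 on the log2 scale (standard error 1.28, adjusted p = 0.96, edgeR). DESeq2 gave a difference of 4.73 with an adjusted p of 0.00061, while the difference was 3.89 by limma on the 7 libraries and 3.06 with the block on replicate number. Over all alternatives the adjusted p ran from 0.00061 to 1. By edgeR the unadjusted P was under 0.05 with all libraries but not without saline replicate 1, where the difference was 4.93, or without saline replicate 2, where it was 4.52. Without Day 8 replicate 1 the difference was 5.27 and passed the adjusted threshold of 0.1 (adjusted p = 0.030, edgeR).

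The 3 genes whose pattern over the 7 libraries was most like that of Guca2b, among 10051 genes compared by the root-mean-square distance of centred log2(CPM + 1), were Ctla2b (distance 0.28), Pip (0.35) and Ctla2a (0.37). Ctla2a, a cysteine protease inhibitor, had 213, 6404 and 7967 CPM in Day 8 replicates 1, 2 and 3, against 210 and 157 in saline and 243 and 241 at Day 3. Ctla2a and Ctla2b are near-identical copies that reads may not separate. The receptor for uroguanylin, Gucy2c, and its relative Guca2a, both picked out after their values were seen, were at or under 0.311 CPM in every library. Gucy2c had no count in any of the 6 count libraries, which allows up to 0.368 CPM in the shallowest. Uroguanylin is abundant in intestine, so markers of intestine were read beside it: 8 of 10 were under 1 CPM in every library, Cdx1 and Cdx2 were at 0 in all 7, the most abundant, Vil1, lay between 0.828 and 1.55 CPM, and the list summed to 2.21 and 3.28 CPM in saline, 2.45 and 2.17 at Day 3 and 2.33, 4.54 and 3.42 at Day 8. The 2 largest of these sums were in Day 8 replicates 2 and 3, the libraries with the most Guca2b, and their part in its level was not tested.

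**Figure D1:**
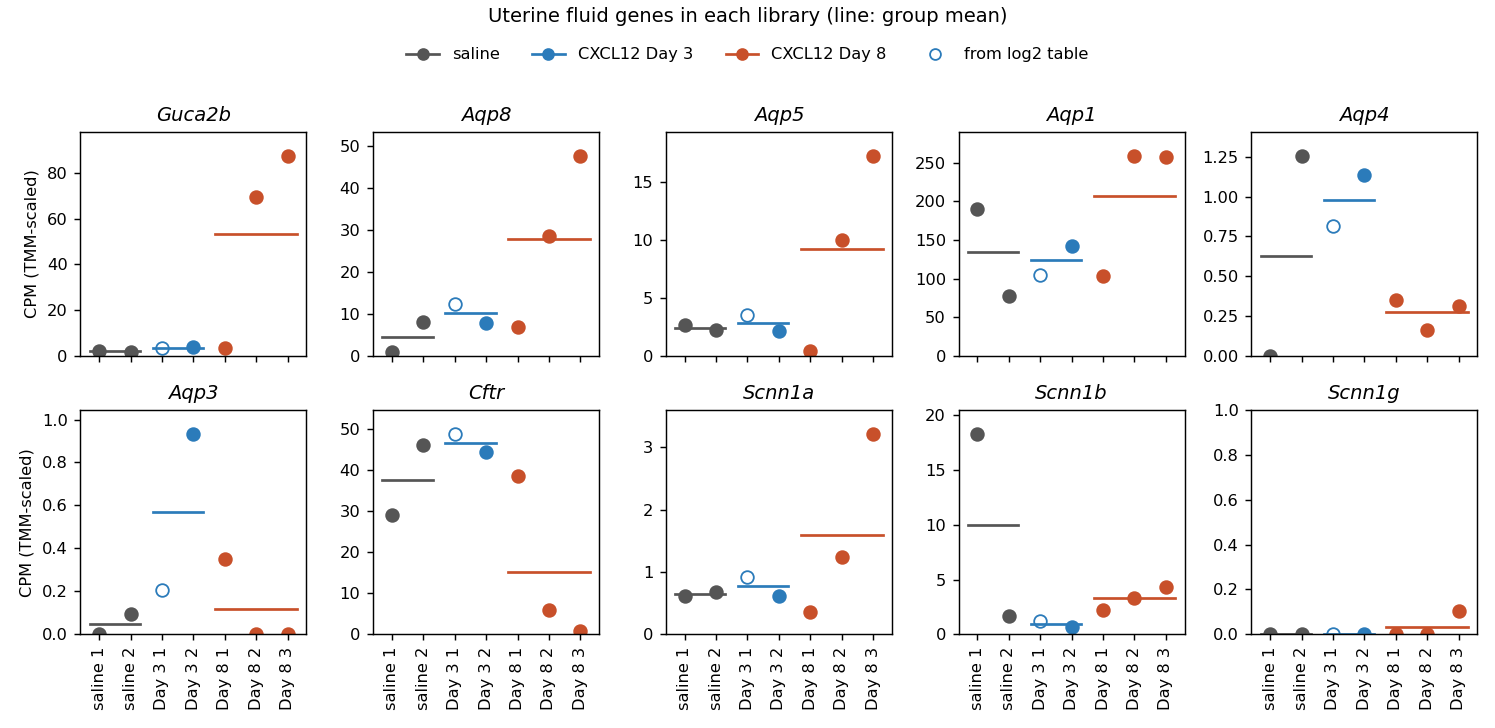
Level of each of the 10 genes in CPM (vertical axes, each panel on its own scale from 0) in the 7 libraries (horizontal axis), coloured by group, with a line at each group mean and an open circle for the library deposited as log2 values. Guca2b, Aqp8, Aqp5 and Scnn1a were highest and Cftr lowest in Day 8 replicates 2 and 3, while Day 8 replicate 1 lay near the saline and Day 3 libraries for Guca2b, Aqp8 and Cftr and was the lowest library for Aqp5 and Scnn1a.

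Aqp8, a water channel that also passes ammonia and hydrogen peroxide, was lowest in one saline library. It had 0.981 and 8.01 CPM in saline, 12.5 and 7.76 at Day 3 and 7.0, 28.5 and 47.5 at Day 8. Day 8 replicates 2 and 3 were the highest of the 7 libraries, and Day 8 replicate 1 lay between the saline libraries. The difference between Day 8 and saline was 2.60 on the log2 scale (standard error 1.03, adjusted p = 0.96, edgeR), with an unadjusted P under 0.05. It was 4.81 without saline replicate 2, 1.79 without saline replicate 1, the library at 0.981 CPM, and 1.97 without Day 8 replicate 3, and in both cases the unadjusted P was above 0.05. The genes most like Aqp8 were Slc39a8 (distance 0.32), a zinc transporter, Car12 (0.34), a membrane carbonic anhydrase, and Tmem213 (0.36).

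Aqp5, the water channel of secretory glands, had 2.70 and 2.22 CPM in saline, 3.58 and 2.17 at Day 3 and 0.467, 10.1 and 17.3 at Day 8. The Day 8 libraries held both the lowest and the 2 highest levels of the 7. By edgeR the difference from saline was 1.92 (standard error 1.16, adjusted p = 0.96), but 0.16 with the block on replicate number and 1.11 without Day 8 replicate 3. The unadjusted P was under 0.05 only without Day 8 replicate 1 among the libraries left out in turn, with a difference of 2.47. Ifit1, an interferon-induced gene (distance 0.26), and the immediate early genes Fos (0.28) and Cyr61 (0.32) had the patterns most like Aqp5. Fos, for example, had 2.45, 26.0 and 35.5 CPM in Day 8 replicates 1, 2 and 3, and 5.89 to 9.83 CPM in the other libraries.

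Aqp1, the water channel of endothelium and red cells, had 190 and 77.9 CPM in saline, 105 and 142 at Day 3 and 104, 259 and 258 at Day 8. The groups overlapped, and the difference between Day 8 and saline was 0.63 (standard error 0.53, adjusted p = 0.96 by edgeR), with 1.41 without saline replicate 1 and 0.13 without saline replicate 2. The 10 endothelial markers, led by Pecam1, summed to 310 and 220 CPM in saline, 249 and 281 at Day 3 and 211, 393 and 398 at Day 8. The 5 libraries with the most Aqp1 were the 5 with the largest endothelial sum. The same 5 also had the largest sum of smooth muscle markers, so the match is not particular to endothelium. That sum was 2739 and 1749 CPM in saline, 3394 and 3864 at Day 3 and 2098, 4647 and 4481 at Day 8. In these bulk libraries more cells of a type and more RNA per cell cannot be told apart. The markers of red blood cells, led by Hba-a1, followed another order and were highest in Day 3 replicate 1, at 27118 CPM, against 5756 in saline replicate 1.

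The remaining aquaporins were near the floor. Aqp4, the brain and muscle water channel, had 0 and 1.25 CPM in saline, 0.816 and 1.14 at Day 3 and 0.350, 0.165 and 0.311 at Day 8, where it rested on 3, 2 and 3 counts. All Day 8 libraries lay under both Day 3 libraries. Aqp3, an aquaglyceroporin, had 13 counts in all in the 6 count libraries, 9 of them in Day 3 replicate 2 (0.931 CPM), and was at 0 in saline replicate 1 and Day 8 replicates 2 and 3. It did not pass the filter on low values in either kind of fit, and no difference between groups was detectable at this depth.

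Cftr was lowest in 2 of the 3 Day 8 libraries. It had 28.9 and 46.1 CPM in saline, 48.7 and 44.5 at Day 3 and 38.6, 5.86 and 0.725 at Day 8, the last from 7 counts against 236 and 478 in saline. Day 8 replicates 2 and 3 were the lowest of the 7 libraries and Day 8 replicate 1 lay between the saline libraries. The fitted difference between Day 8 and saline was -1.32 (standard error 1.17, adjusted p = 0.96, edgeR). Without Day 8 replicate 1 it was -3.48, with an unadjusted P under 0.05. An antisense gene, Gm15592, and a pseudogene, Gm15595, lie within the span of Cftr, and use of strand in the counting is not given in the sources used here, so their reads cannot be told apart from those of Cftr. The genes with patterns most like Cftr were Cpn1 (distance 0.55), the mitotic kinase gene Pbk (0.56) and Slfn9 (0.58), all at a larger distance than the likest genes of Guca2b, Aqp8, Aqp5 and Scnn1b.

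Of the ENaC subunits, Scnn1a, which codes for the pore-forming α subunit, had 0.613 and 0.676 CPM in saline, 0.921 and 0.621 at Day 3 and 0.350, 1.24 and 3.21 at Day 8. The highest level rested on 31 counts, and the difference from saline was 1.30 (standard error 1.07, adjusted p = 0.96 by edgeR), but 0.32 without Day 8 replicate 3 and 0.15 with the block on replicate number. Scnn1b, the β subunit gene, had 18.3 and 1.64 CPM in saline, 1.23 and 0.621 at Day 3 and 2.22, 3.30 and 4.35 at Day 8. Saline replicate 1 alone, with 149 counts, stood above all other libraries, and the difference between Day 8 and saline of -1.58 (standard error 0.88, adjusted p = 0.96 by edgeR) became 0.998 without it and -2.46 without saline replicate 2, the latter with an unadjusted P under 0.05.

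The last part of Scnn1b lies inside Cog7, a gene on the opposite strand, which had 34.1 CPM in saline replicate 1 and 15.2 to 21.3 CPM in the others. The genes most like Scnn1b were Cep85l (distance 0.29), H2-Q9 (0.29) and Cpeb1 (0.34), each highest in saline replicate 1. Scnn1g, the γ subunit gene, had 1 count in Day 8 replicate 3 and none in the other 5 count libraries, and was not tested.

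Of the 10 genes, 8 passed the filter on low values and were tested, Scnn1a only through Day 8 replicates 2 and 3 and Aqp4 only through saline replicate 2 and Day 3 replicate 2. A gene was counted where it differed at least 2-fold with an unadjusted P under 0.05. By this rule 2 of the 8, Guca2b and Aqp8, were higher at Day 8 than in saline and none was lower, where 2.94% of all 15388 genes tested passed in either direction, 1.53% as higher and 1.42% as lower. Only Guca2b had groups that did not overlap in that direction, which was so for 9.11% of all genes tested, with 10.1% lower without overlap and 19.2% in either direction. No gene of the 15388 passed an adjusted p of 0.1 by edgeR, while 658 (4.28%) had an unadjusted P under 0.05, and DESeq2 called 49 genes and limma 0 at the adjusted p. Without Day 8 replicate 1, Guca2b, Aqp8, Aqp5 and Cftr passed, as did 1027 of all 15359 genes then tested, and without saline replicate 1 none of the fluid genes did, beside 286 of 15170.

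Between Day 3 and saline, none of the 8 tested passed the same rule by limma on quantile-normalized log2(value + 1), a scale that understates differences of low genes, and 4.65% of all 14876 genes passed, 1.98% as higher and 2.67% as lower. Scnn1b lay under both saline libraries (log2 difference -2.29, standard error 1.03, adjusted p = 0.62), and was at -0.57 without saline replicate 1 and -4.09 without saline replicate 2, where it passed. Guca2b lay above both saline libraries with a difference of 1.01 (standard error 1.29, adjusted p = 0.79). It passed, with the same 1.01, without Day 8 replicate 1, a library outside the comparison that enters the shared estimate of spread. In 48.7% of all genes tested the 2 Day 3 libraries did not overlap with the 2 saline libraries, 23.9% as higher and 24.7% as lower. Aqp8 was 1.91 higher (standard error 1.08, adjusted p = 0.62), 0.41 higher without saline replicate 1, and 3.45 higher without saline replicate 2, where it passed. Cftr differed by 0.32 (standard error 1.36) and Aqp1 by -0.16 (standard error 0.58). No gene passed an adjusted p of 0.1 by limma or by edgeR on recovered counts, and 1116 (7.5%) had an unadjusted P under 0.05.

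Between Day 8 and Day 3, Cftr was lower by limma, with a log2 difference of -2.94 (standard error 1.24, adjusted p = 0.70), and Guca2b was higher, with a difference of 2.88 (standard error 1.18, adjusted p = 0.70). These were 2 of the 8 tested genes, where 4.57% of all 14876 genes passed in either direction, 2.23% as higher and 2.35% as lower. Cftr was lower in all 3 Day 8 libraries than in both Day 3 libraries, and so was Aqp4, while Scnn1b was higher in all 3. Groups did not overlap in 32.6% of all genes tested, 16.5% as higher and 16% as lower.

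Both calls were lost when any library other than Day 8 replicate 1 was left out. Without Day 8 replicate 3 the differences were -1.64 and 2.09, and without Day 8 replicate 1 they were -4.30 and 4.30, with Aqp1 (1.18) and Aqp5 (2.01) also past the threshold, as were 1647 of all 14791 genes then tested. Neither call held with the block on replicate number or without a filter on low values, and that of Cftr was also lost by edgeR on recovered counts (-1.64). No gene passed an adjusted p of 0.1 by limma or by edgeR on recovered counts, and 1054 (7.09%) had an unadjusted P under 0.05. The 3 comparisons share libraries, so their fold changes are not independent of each other.

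**Figure D2:**
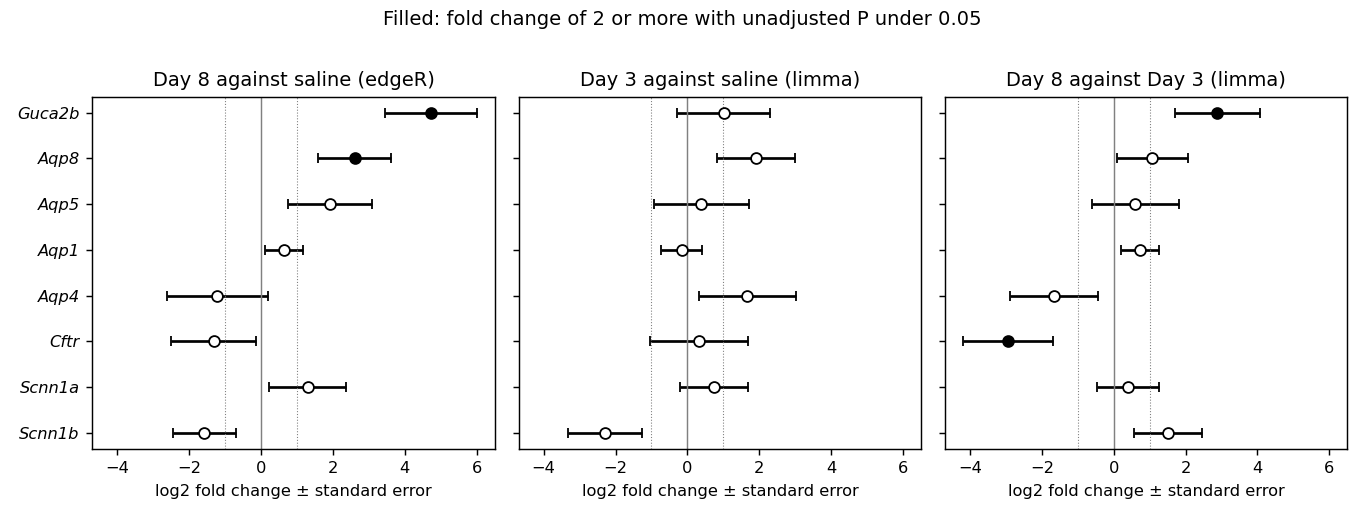
Log2 fold change (horizontal axis) of the 8 tested genes (vertical axis) in 3 comparisons, with bars of 1 standard error, dotted lines at 2-fold differences and filled points where the unadjusted P was also under 0.05. Guca2b and Aqp8 at Day 8 against saline, and Guca2b and Cftr at Day 8 against Day 3, are the filled points.

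**Figure D3:**
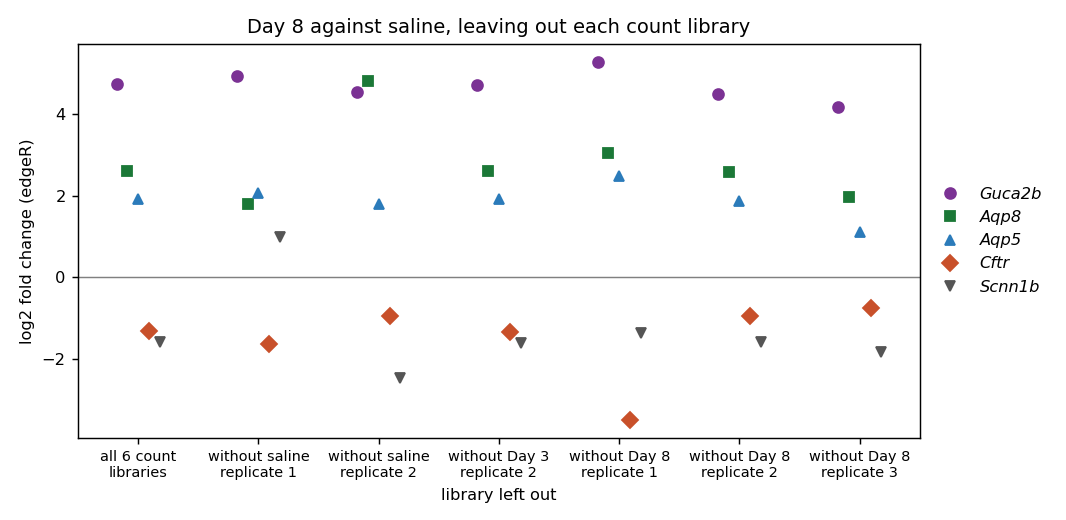
Log2 fold change between Day 8 and saline by edgeR (vertical axis) for 5 genes, with all 6 count libraries and with each left out (horizontal axis). Guca2b stayed between 4.17 and 5.27, Cftr ran from -3.48 without Day 8 replicate 1 to -0.76 without Day 8 replicate 3, and Scnn1b changed sign without saline replicate 1.

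Other genes of water, sodium and chloride transport were read from 5 lists. Of the 7 other aquaporins, 4 were tested. None passed in either comparison with saline, and 1 of the 4 passed between Day 8 and Day 3, beside 4.57% of all genes. Aqp11, an intracellular aquaporin, was higher at Day 8 than at Day 3 by 2.06 (standard error 0.45, adjusted p = 0.65 by limma). Aqp11 had 6.38 and 3.76 CPM in saline, 2.05 and 2.28 at Day 3 and 7.93, 8.50 and 16.5 at Day 8, so that all 3 Day 8 libraries were above all others. Mip and Aqp9, the next most abundant, reached 3.41 and 2.70 CPM.

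Of 16 genes that act on ENaC, 13 were tested. None passed between Day 8 and saline, where the median log2 fold change of the list was 0.40, against -0.01 for all genes tested. At Day 3 against saline 2 were higher and 1 lower, beside 1.98% and 2.67% of all genes. Tmprss4, a channel-activating protease gene, had 6.87 and 17.7 CPM in saline, 36.4 and 34.6 at Day 3 and up to 32.9 at Day 8, where all 3 libraries lay above saline and below Day 3. Hsd11b2, whose enzyme keeps glucocorticoids off the mineralocorticoid receptor, had 47.7 and 109 CPM in saline, 183 and 216 at Day 3 and 91.3 to 110 at Day 8. The log2 differences were 1.68 for Tmprss4 (standard error 0.45) and 1.33 for Hsd11b2 (standard error 0.37), and without saline replicate 1 they were 1.03 for Tmprss4 and 0.75 for Hsd11b2, where the call of Hsd11b2 was lost. Wnk1, a kinase of salt transport, was lower at Day 3 (log2 difference -1.15, standard error 0.46, adjusted p = 0.62, limma). Saline replicate 1 had 426 CPM of Wnk1 against 144 to 191 in the other 6, and the call was lost when any library other than saline replicate 2 or Day 8 replicate 1 was left out, with -0.35 without saline replicate 1. At Day 8 against Day 3 only Tsc22d3 passed, 1 of 13 beside 4.57% of all genes. It is the glucocorticoid-induced leucine zipper gene, which raises ENaC activity in kidney cells. Tsc22d3 had 54.7, 163 and 175 CPM in Day 8 replicates 1, 2 and 3, 35.9 and 40.1 at Day 3 and 72.1 and 39.2 in saline (log2 difference 1.65, standard error 0.52, adjusted p = 0.69 by limma), and its call was lost without Day 3 replicate 1 (1.56).

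Of 28 genes of chloride and bicarbonate transport, 20 were tested, with a median of 0.13 between Day 8 and saline. Clca3a1 alone passed there, 1 of 20 beside 2.94% of all genes, and was higher by 2.31 (standard error 0.87, adjusted p = 0.96 by edgeR), with 1.35 and 2.90 CPM in saline, 5.72 and 7.55 at Day 3 and 2.33, 11.6 and 18.0 at Day 8, and it is one of a family of similar genes between which reads may be split. The call was lost without saline replicate 1 (1.88), saline replicate 2 (2.98) or Day 8 replicate 3 (1.71).

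At Day 8 against Day 3, Clca1 and Kcnn4 were lower and Ano1 was higher, 3 of 20 beside 4.57% of all genes. Clca1, which codes for a secreted regulator of calcium-activated chloride channels, had 82.0 and 89.7 CPM in saline, 223 and 180 at Day 3 and 182, 0.495 and 1.24 at Day 8. Its log2 difference was -5.29 (standard error 2.11, adjusted p = 0.70, limma), but -1.72 and not past the threshold by edgeR on recovered counts. Kcnn4, a calcium-activated potassium channel gene, had 24.7, 8.25 and 2.28 CPM in Day 8 replicates 1, 2 and 3, 30.2 and 35.4 at Day 3 and 17.2 and 34.4 in saline. The difference for Kcnn4 was -2.06 (standard error 0.83), and, as for Cftr, the calls of Clca1 and Kcnn4 were lost without any 1 library other than Day 8 replicate 1, without which they were -7.95 and -2.88. Clca1, Kcnn4 and Cftr shared their 2 lowest libraries, Day 8 replicates 2 and 3. Ano1, the calcium-activated chloride channel itself, differed by 1.14 (standard error 0.26, adjusted p = 0.65, limma) and was higher in all 3 Day 8 libraries (63.2, 82.3 and 92.6 CPM) than at Day 3 (37.1 and 35.8 CPM). The saline libraries, at 67.6 and 52.7 CPM of Ano1, also lay above Day 3 and overlapped with Day 8.

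Car2 and Car12 encode carbonic anhydrases, enzymes that supply bicarbonate. Car2 had 81.7 and 748 CPM in saline, 695 and 717 at Day 3 and 597, 47.9 and 111 at Day 8. Car12 had 6.75 and 51.9 CPM in saline, 53.3 and 55.8 at Day 3 and 42.9, 100 and 175 at Day 8. Neither passed in a comparison.

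In the list of guanylin and cyclic GMP signalling, 10 of 15 genes were tested, and none passed between Day 8 and saline, where the median was -0.10. In each comparison with Day 3, 1 of the 10 passed, beside 4.65% of all genes against saline and 4.57% against Day 8. Nppc, which codes for C-type natriuretic peptide, had 0.491 and 10.7 CPM in saline, 22.1 and 28.9 at Day 3 and 1.28, 4.46 and 1.24 at Day 8. It was higher at Day 3 than in saline by 3.54 (standard error 1.26, adjusted p = 0.62, limma), a call lost without saline replicate 1 (1.29), Day 3 replicate 1 (3.70) or Day 3 replicate 2 (3.37), and lower at Day 8 than at Day 3 (log2 difference -3.63, standard error 1.15, adjusted p = 0.69), a call lost without Day 3 replicate 2 (-3.44). Day 8 replicate 1 lay with the other Day 8 libraries for Nppc, unlike for Guca2b and Cftr. The phosphodiesterase gene Pde5a, highest in saline replicate 1 at 93.5 CPM, and the natriuretic peptide receptor genes Npr2 and Npr1 did not pass.

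All 12 genes of the sodium pump list, the pump that powers this transport, were tested, and their median between Day 8 and saline was 0.53. The pump regulators Fxyd3 and Fxyd4 were higher at Day 8, 2 of 12 beside the 2.94% of all genes. Fxyd3 had 78.0 and 70.1 CPM in saline, 134 and 140 at Day 3 and 187, 210 and 321 at Day 8 (log2 difference from saline 1.69, standard error 0.34, adjusted p = 0.96 by edgeR), and the 3 groups did not overlap. Of all genes tested, 9.11% were higher without overlap at Day 8 than in saline and 23.9% at Day 3 than in saline. At Day 8 against Day 3 it was 16.5%, and the share for all 3 groups at once was not computed. Fxyd4 had 39.5 and 59.6 CPM in saline, 107 and 90.02 at Day 3 and 193, 76.6 and 118 at Day 8 (1.38, standard error 0.45, adjusted p = 0.96 by edgeR), and the call was lost without saline replicate 1 (1.11) or Day 8 replicate 1 (0.97). The β1 subunit gene Atp1b1 had 90.8 and 99.6 CPM in saline, 65.1 and 69.7 at Day 3 and 85.5, 136 and 199 at Day 8. It was the 1 gene of the 12 that passed between Day 8 and Day 3, beside 4.57% of all genes. Atp1b1 was higher at Day 8 than at Day 3 by 1.02 (standard error 0.34, adjusted p = 0.69 by limma). The call was lost when either Day 3 library or Day 8 replicate 2 or 3 was left out (0.74 to 1.07). Atp1b3, the β3 subunit gene, lay between 188 and 311 CPM in the 7 libraries.

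**Figure D4:**
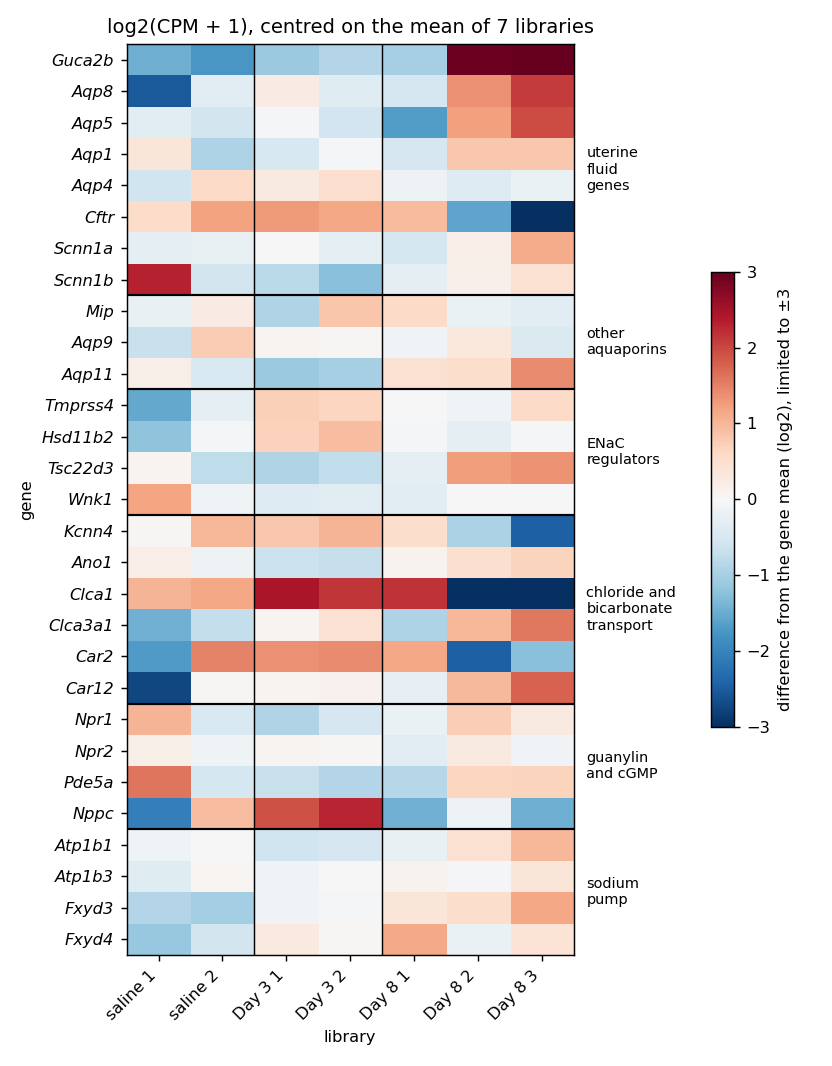
Log2(CPM + 1) of the 8 tested fluid genes and of the named genes of 5 transport lists (rows), centred on each gene's mean over the 7 libraries (columns), with colours limited to 3 above and below the mean. Guca2b, Aqp8, Aqp5, Tsc22d3 and Car12 are high and Cftr, Clca1 and Kcnn4 low in Day 8 replicates 2 and 3, Car2 is low in these and in saline replicate 1, and Fxyd3 is higher in all CXCL12 libraries than in saline.

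Hormone-responsive genes of the uterus were read beside these levels, since no cycle stage is labelled. Both lists were chosen with earlier results of these data known, so their counts beside all genes are a description and not a test. The 12 progesterone-induced genes found in the tables, led by Hdc, summed to 201 and 282 CPM in saline, 193 and 199 at Day 3 and 295, 771 and 1412 at Day 8. The 3 libraries with the largest sum, Day 8 replicates 3, 2 and 1, included the 2 with the most Guca2b, Aqp8 and Aqp5. Of these genes 12 were tested between Day 8 and saline, and 6 were higher (Calca, Il13ra2, Lrp2, Cyp26a1, Sult1d1 and Hdc) and none lower, beside 1.53% of all genes as higher. Calca and Areg, the latter not among the 6, passed the filter on low values only through Day 8 libraries, where they were highest, and without them 5 of 10 were higher. Between Day 8 and Day 3, 6 of 11 tested were higher and none lower, beside 2.23% as higher. At Day 3 against saline, 1 of 11 tested was higher (Il13ra2) and 1 lower (Ihh), beside 1.98% and 2.67% of all genes. The 14 oestrogen-induced genes, led by C3, summed to 1205 and 1165 CPM in saline, 1949 and 1756 at Day 3 and 1156, 569 and 675 at Day 8, with Sprr2a1 at 0 in all 7 libraries, and 1 of them, Krt7, is also among the epithelial markers. The 2 libraries with the smallest sum were those with the least Cftr, and the library with the largest, Day 3 replicate 1, had the most. Of 13 tested between Day 8 and saline, 1 was lower (Ltf) and none higher, beside 1.42% of all genes as lower. Between Day 8 and Day 3, 7 of the 13 tested were lower (Muc1, Lcn2, Padi1, Padi2, Sprr2b, Sprr2f and Krt7) and none higher, beside 2.35% of all genes as lower. The part of cycle stage in the levels of Guca2b, Aqp8, Aqp5 and Cftr was not tested.

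**Figure D5:**
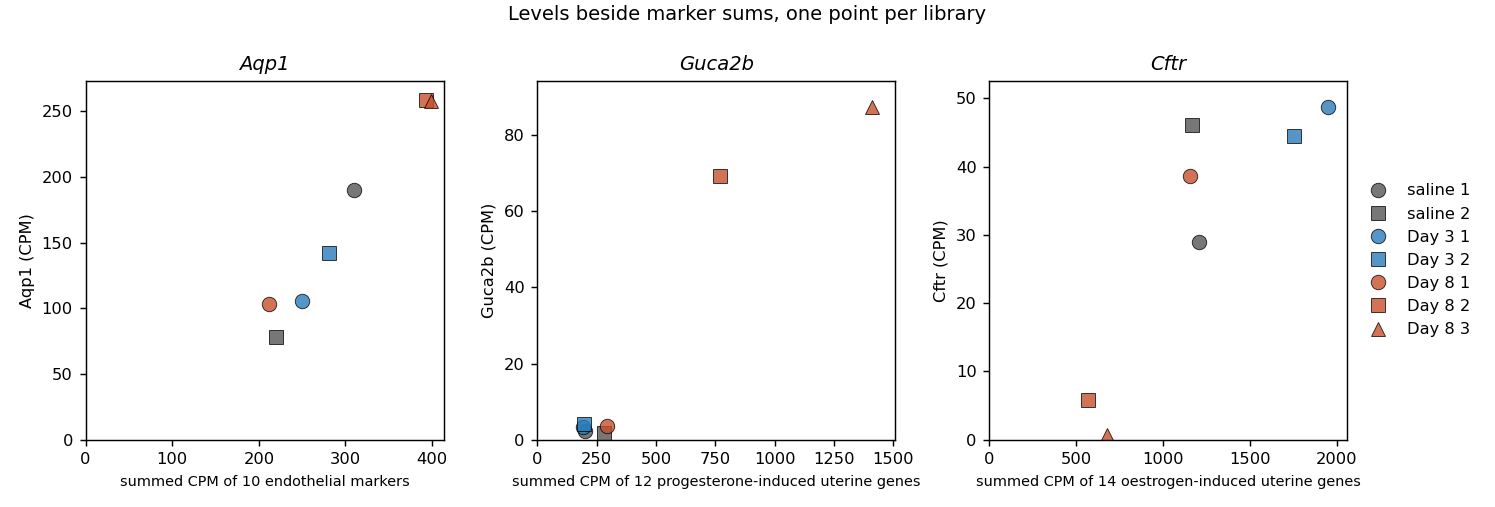
Level of Aqp1, Guca2b and Cftr in CPM (vertical axes) against the summed CPM of a marker list in the same library (horizontal axes), one point per library, with colour for the group and shape for the replicate. Day 8 replicates 2 and 3 lie at the upper right for Aqp1 with endothelial markers and Guca2b with progesterone-induced genes, and at the lower left for Cftr with oestrogen-induced genes.

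Markers of other cells also varied. The 13 epithelial markers, led by Wfdc2, summed to 1473 and 2147 CPM in saline, 2283 and 2219 at Day 3 and 2840, 982 and 1965 at Day 8, so that the epithelial sum was lowest in one of the 2 libraries with little Cftr and near that of saline replicate 2 in the other, Day 8 replicate 3, where Cftr was at 0.725 CPM. Smooth muscle markers, led by Acta2, were highest in Day 8 replicates 2 and 3 (4647 and 4481 CPM, against 1749 to 3864 in the other 5). Stromal markers, led by Dcn, were highest in the same 2 libraries (13596 and 15954 CPM, against 8610 to 13367 in the other 5). Mesothelial markers, led by Gpm6a, were lowest in Day 8 replicate 1 (26.4 CPM) and highest in Day 8 replicates 2 and 3 (126 and 181 CPM).

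Ovarian markers, led by Hsd3b1, summed to 1073 CPM in saline replicate 2 and 3667 in Day 8 replicate 2, but to 25.8 in Day 8 replicate 3, where Guca2b was highest and Cftr lowest. Oviduct markers, led by Ovgp1, lay between 433 and 934 CPM and were lowest in Day 8 replicate 3. Adipocyte markers, led by Fabp4, had 837 and 2516 CPM in saline, 3000 and 312 at Day 3 and 244 to 374 at Day 8. Markers of squamous epithelium, led by Sbsn, lay between 10.8 and 16.5 CPM, and those of skeletal muscle, led by Tnni2, between 58.6 and 196 CPM. The part of cell composition in the levels of the fluid genes was not tested.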

How the data were processed

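QuantSeq 3′ reads of 75 bases were aligned by the authors with Bowtie2 and counted per gene symbol with Bedtools. Versions are not given in the sources used here, and the submitters' notes name mm10 and hg19. Per gene, the deposited values of 6 libraries are raw counts, and those of Day 3 replicate 1 are log2 values of normalized counts. After that log2 was undone and 1.0515 divided out, 97.6% of 3275 low values lay within 0.1 of a whole number. The divisor was the one of a range that made this share largest on these same values. For a divisor fixed in advance chance would give 20%, and the share for the best of the range was not computed. These recovered counts entered one alternative only.

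The comparison of Day 8 with saline used edgeR 4.0.16 (quasi-likelihood test, TMM, filterByExpr) on the 6 count libraries in 3 groups, and the standard error was taken as the log2 fold change over the square root of F. Comparisons with Day 3 used limma 3.58.1 (trend) on quantile-normalized log2(value + 1) of all 7 libraries, with genes at 1 CPM or more in at least 2 libraries. P values were adjusted by Benjamini-Hochberg over all genes tested. Calls needed a 2-fold difference and an unadjusted P under 0.05, or an adjusted p under 0.1, in R 4.3.3. Biological coefficient of variation was 42.2%. Against saline, the edgeR fit of Day 8 and the limma fits of Day 3 and Day 8 were tested on simulated data. The comparison of Day 8 with Day 3 and the other alternatives were not.

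The members and lists were chosen with earlier results of these data known. Named were all 10 members, in each transport list the genes past the unadjusted threshold and the 3 tested genes with the highest mean CPM, and the 3 genes most like each member whose log2(CPM + 1) spanned at least 2, among genes at 10 CPM or more in at least 2 libraries. Of each marker list the most abundant gene and genes at 0 were named, and other genes were named after their values were seen. Alternatives covered normalization, filters, pseudocount, tool (DESeq2 1.42.0), grouping of Day 8 replicate 1, the replicate number as a block and leaving out each library. Gene positions are from RefSeq and GENCODE M21 (GRCm38), and no position or sequence is given for Aqp4. The result for 1 gene that this rule names in the sodium pump list is not reported here.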

Additional observations from a re-analysis of the deposited data

Results flagged for a closer look

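Guca2b and Cftr were marked because the test of Day 8 against Day 3, which is also the difference between their contrasts with saline, had an unadjusted P under 0.05. The difference by limma was 2.88 on the log2 scale for Guca2b and -2.94 for Cftr, with an adjusted p of 0.70 for each. Guca2b was higher at Day 8 in 2 of 3 libraries than in both Day 3 libraries, and Cftr was lower in 3 of 3. Both calls were lost with any library other than Day 8 replicate 1 left out, with the block on replicate number and without a filter on low values. Aqp4 was marked because both Day 3 libraries lay above the saline mean of 0.627 CPM and all 3 Day 8 libraries below it. For Aqp4 the saline libraries themselves were at 0 and 1.25 CPM, and the limma difference between Day 8 and Day 3 of -1.66 had an adjusted p of 0.76.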

How the results depend on the processing

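The direction of Guca2b and Aqp8 was the same in every alternative run for all 3 comparisons. Genes at least 2-fold different with an unadjusted P under 0.05 between Day 8 and saline numbered 157 with the block on replicate number and 1094 with Day 8 replicate 1 counted with Day 3 (229 to 1527 leaving out one library). At the adjusted p, 49 passed by DESeq2, 58 with Day 8 replicate 1 counted with Day 3 and 0 to 15 leaving out one library. Of the 10 fluid genes, 1 passed with at least 10 counts in every library, beside 343 of all 12490 genes then tested. That filter left only Aqp1 and Guca2b of the 10 to test. With Day 8 replicate 1 counted with Day 3, 4 of the fluid genes passed, beside 1094 of all 14689 genes, and 1 to 4 passed leaving out one Day 8 library. For Day 3 against saline the numbers were 1044 with scaling alone and 260 to 2849 leaving out one library, at the adjusted p 36 without a filter and 0 to 2351, and among the fluid genes 1 with scaling alone, 1 by edgeR on recovered counts, 2 with Day 8 replicate 1 counted with Day 3 and 0 to 2. For Day 8 against Day 3 they were 425 with the block, 1788 with Day 8 replicate 1 counted with Day 3 and 263 to 1647, at the adjusted p 28 without a filter, 3 with the compared groups alone, 1369 with Day 8 replicate 1 counted with Day 3 and 0 to 474, and among the fluid genes 0 without a filter, 1 at 1 CPM in every library, 1 on recovered counts, 1 with the groups alone, 0 with the block, 5 with Day 8 replicate 1 counted with Day 3 and 0 to 4.

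Directions turned for Day 8 against saline in Aqp4 (0.00376 by limma, -2.16 to 4.45 leaving out one library) and Scnn1b (-2.46 to 0.998). They turned for Day 3 against saline in Aqp1 (-0.896 to 0.570 leaving out one library), Aqp4 (-0.0341 to 1.90), Cftr (-0.000228 to 0.649), Aqp5 (-0.0600 with scaling alone, -0.358 with Day 8 replicate 1 counted with Day 3) and Scnn1a (-0.0146 with scaling alone). They turned for Day 8 against Day 3 in Aqp5 (-0.309 with the block, -0.302 to 2.01 leaving out one library) and Scnn1a (-0.279 with the block). The cause was not tested.

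Same-numbered libraries deviated together with correlations of -0.056 (saline and Day 3) and of -0.17 and -0.076 (saline and Day 8). Between Day 3 and Day 8 the correlations were 0.009 and -0.002. These values concern pairing by replicate number alone. Whether any libraries came from the same animal could not be tested, since the labels name no animal. Where 1 library was left of a group, it was assumed to vary like the others. Aqp3 and Scnn1g were too low to test, and Aqp4 and Scnn1a rested on 32 and 67 counts over 6 libraries.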
